A study of Zea mays with 16 samples.

Results

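A set of 137 probes, of 42034 non-control probes on the array, gave a higher signal in anthers of both ms23 and ms32 male-sterile maize mutants than in anthers of their fertile siblings. They were chosen by their values on the 4 two-colour arrays of slide 2: the log2 ratio of mutant over fertile sibling, from the scanner software's processed signals, was at least 0.8 (1.74-fold) on every one of the 4 arrays. The mutant channel also had to be well above background on all 4, and none of these spots carried an outlier mark. The mirrored rule, a ratio of -0.8 or less on all 4 arrays, was met by 396 probes. The ratios to siblings on slide 2 therefore describe the set and test nothing. Samples on slide 1 had no part in the choice, and the test reported here was made there.

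The groups were ms23 mutants and ms32 mutants, with 6 labelled samples each, and ms23 fertile siblings and ms32 fertile siblings, with 2 labelled samples each. All were whole anthers of 1.5 mm length, and the labels name no further allele, treatment or inbred background. Slide 1 held 4 arrays, each with an ms23 mutant against an ms32 mutant (replicates 1 and 2, each in both dyes). Slide 2 held 2 arrays of ms23 mutant against ms23 sibling and 2 of ms32 mutant against ms32 sibling (mutant replicate 3 and sibling replicate 1, each in both dyes). The titles give the 2 dyes of a replicate the same number, while the series' design text speaks of 2 biological replicates in each mutant and sibling comparison. The 2 slide 2 arrays of a family are thus dye swaps of 1 replicate by the titles and 2 replicates by the design text, which the files do not settle. No label says whether replicates came from separate plants, and every spread below may be partly technical.

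The ms23 and ms32 genes encode basic helix-loop-helix transcription factors of the tapetum, the innermost wall layer of the anther, which surrounds the pollen mother cells and later feeds the microspores. In either mutant the tapetal precursors fail to mature and the plants shed no functional pollen. A whole anther also holds epidermis, endothecium, middle layer and meiotic cells. A higher signal in whole mutant anthers can come from more cells of a type or from more RNA per cell, and these measurements cannot tell them apart.

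The targets are named by assembled transcripts and single cDNA reads. Of the 137 probes, 109 carried a tentative consensus number (TC) and 28 another accession, 1 of them for an annotated coding sequence (NP1386772). No target name of the set matched a gene in the RefSeq table of the maize genome used here, against 2 of 39174 target names on the whole array, so the set is described by target name and no gene function is given. Of 47 marker genes listed for tapetum, early anther wall, meiocytes, green cells and pollen, 2 meiocyte genes could be matched to target names on the array. These were AM1, required for entry into meiosis, and ZmSGO1, a protector of centromeric cohesion. Each of the 3 AM1 probes and the ZmSGO1 probe was well above background in all 16 samples. The tissue label could not be checked further, and the probes of ms23 and ms32 themselves were not analysed here. Between 81.2% and 94.8% of all probes were well above background in a sample.

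Most of the raised probes were a few-fold higher in the mutants. The median of the mean log2 ratio was 1.86 (3.62-fold) in ms23 mutants and 1.73 (3.31-fold) in ms32 mutants, each over 2 arrays. Averaged over all 4 arrays, 1 probe lay under a log2 ratio of 1, 81 between 1 and 2, 33 between 2 and 3, and 22 at 3 or more. Over all unmarked probes the rule was met on both ms23 arrays by 3.15%, on both ms32 arrays by 1.14% and on all 4 arrays by 0.33%. The ms23 mean was the larger one for 83 probes and the ms32 mean for 54, and 104 probes had the 2 means within 1 log2 unit of each other. The median gap between the 2 dye-swapped arrays was 0.60 for ms23 and 0.61 for ms32 mutants, about the gap over all unmarked probes (0.56 and 0.62). Single probes spread far more, with gaps of up to 6.70 between the ms23 arrays and 4.19 between the ms32 arrays.

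**Figure D1:**
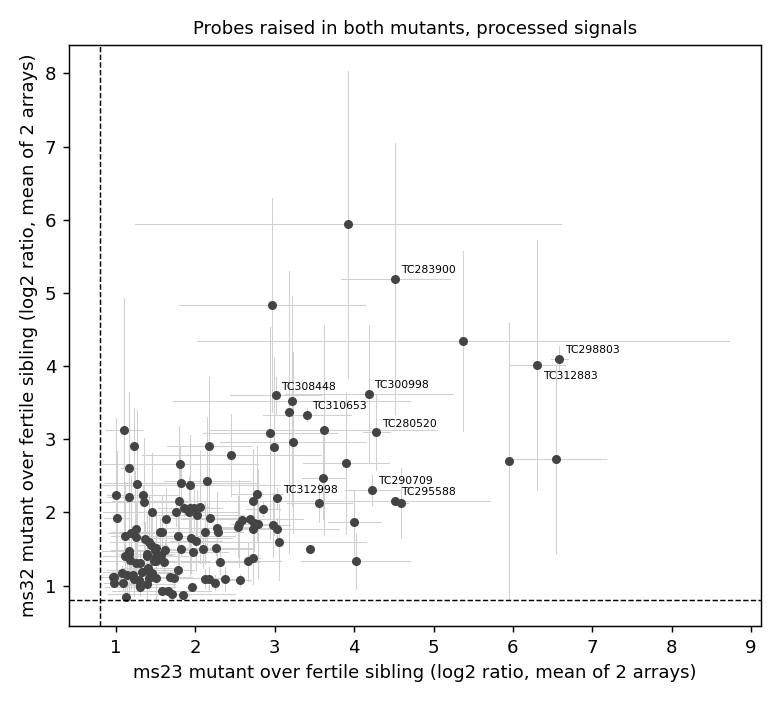
Mean log2 ratio of mutant over fertile sibling on slide 2 for each of the 137 raised probes, ms23 on the x axis and ms32 on the y axis; grey lines span the 2 arrays of a family and dashed lines mark the threshold of 0.8. Most points lie under a log2 ratio of 3 in both families, and the named probes are the 10 whose lowest ratio was highest.

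At the threshold, TC288540, TC307935 and TC298200 were just inside, with lowest ratios of 0.804, 0.805 and 0.807. TC304374, TC313718 and TC301663 were just outside, at 0.7998, 0.7953 and 0.795. The lowest of the 4 ratios was under 1 for 51 probes and at least 2 for 11.

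The 10 probes with the highest lowest ratio are described in full, on a log2 scale of levels in single samples (normalized within and between arrays). On this scale background correction adds an offset of 50 intensity units, which makes differences between dim signals smaller than in the processed signals. The slide 2 samples among these levels also chose the probes, so separation from the siblings is only described.

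TC298803 had processed-signal ratios of 6.69 and 6.48 in ms23 mutants and 3.93 and 4.28 in ms32 mutants, and means of 2.44 and 2.62 after background correction and loess. Its level in ms23 mutants was 7.51 at the lowest, 8.66 at the median and 10.81 at the highest, against 6.20 and 6.24 in ms23 fertile siblings. In ms32 mutants the corresponding levels were 8.998, 10.19 and 10.73, against 6.75 and 6.48 in ms32 fertile siblings. All mutant samples therefore lay above the siblings of their family, on both slides. Neither ms23 sibling sample was well above background, so the size in ms23 mutants is uncertain. On the level scale the 2 slide 2 mutant samples were 5.42-fold higher than the siblings.

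TC283900 had ratios of 3.83 and 5.21 in ms23 mutants and 3.34 and 7.04 in ms32 mutants. Its ms23 mutant levels ran from 7.35 over a median of 8.62 to 9.60, against 6.65 and 6.75 in ms23 siblings. Its ms32 mutant levels ran from 8.13 over 9.39 to 9.98, against 6.51 and 6.30 in ms32 siblings. No mutant sample overlapped the siblings of its family.

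TC280520 was higher in ms23 mutants by ratios of 4.45 and 4.11, and in ms32 mutants by 2.59 and 3.61. The ms23 mutant levels were 10.52, 10.86 and 12.51 (lowest, median and highest), against 7.62 and 8.74 in ms23 siblings. The ms32 mutant levels were 8.96, 9.54 and 10.88, against 7.21 and 7.37 in ms32 siblings. The groups did not overlap in either family.

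TC310653 had similar ratios in both families, 2.85 and 3.96 in ms23 mutants and 3.25 and 3.43 in ms32 mutants. Levels were 8.79, 9.88 and 11.39 in ms23 mutants, against 7.80 and 7.47 in ms23 siblings. They were 10.42, 12.36 and 13.16 in ms32 mutants, against 7.71 and 9.35 in ms32 siblings. The groups were separate, and every ms32 mutant sample lay above the ms23 mutant median.

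TC295588 had ratios of 5.71 and 3.33 in ms23 mutants and of 2.15 and 2.18 in ms32 mutants. Levels were 9.54, 11.36 and 13.13 in ms23 mutants, against 8.05 and 8.67 in ms23 siblings. In ms32 mutants they were 10.64, 12.04 and 12.95, against 9.51 and 8.57 in ms32 siblings. Again no mutant sample overlapped its siblings.

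Of these 10 probes TC312998 varied least between the samples of a mutant. Its ratios were 2.97 and 3.09 in ms23 mutants and 2.33 and 2.06 in ms32 mutants. Its level stayed between 8.26 and 8.85 in the 6 ms23 mutant samples, against 6.72 and 6.70 in ms23 siblings. It lay between 7.19 and 8.22 in the 6 ms32 mutant samples, against 6.5 and 6.42 in ms32 siblings. It was separate from the siblings in both families.

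The remaining 4 of the 10 overlapped with the siblings. TC312883 had ratios of 6.65 and 5.96 in ms23 mutants and 2.31 and 5.72 in ms32 mutants. Its ms23 mutant levels spread from 8.85 over 13.85 to 15.10, against 7.76 and 9.29 in ms23 siblings, so that the lowest mutant sample fell between the 2 siblings. Its ms32 mutant levels of 9.93, 12.62 and 15.17 lay above the 7.98 and 8.75 of ms32 siblings. The spread over mutant samples, more than 5 log2 units in either family, was among the widest of the 10.

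TC300998 had ratios of 5.25 and 3.12 in ms23 mutants and of 2.68 and 4.57 in ms32 mutants. Its levels were 6.85, 9.66 and 13.47 in ms23 mutants, against 6.89 and 9.21 in ms23 siblings. They were 9.24, 9.83 and 14.32 in ms32 mutants, against 7.54 and 9.89 in ms32 siblings. The highest ms32 mutant sample was the Cy3 sample of slide 2, and the other ms32 mutant samples reached 10.63 at most.

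TC290709 and TC308448, like TC300998, overlapped the siblings in both families. TC290709 had ratios of 4.58 and 3.88 in ms23 mutants and 2.51 and 2.11 in ms32 mutants. Its levels were 6.25, 7.88 and 10.94 in ms23 mutants, against 6.31 and 6.86 in ms23 siblings, and 7.60, 8.17 and 10.33 in ms32 mutants, against 6.71 and 8.5 in ms32 siblings. The highest ms23 mutant sample came from slide 1 and the highest ms32 mutant sample from slide 2. TC308448 had ratios of 3.58 and 2.44 in ms23 mutants and 3.35 and 3.86 in ms32 mutants, with levels of 6.05, 6.49 and 8.51 in ms23 mutants, against 5.89 and 6.97 in ms23 siblings, and of 5.99, 6.32 and 8.03 in ms32 mutants, against 6.11 and 6.36 in ms32 siblings. Over the 4 slide 1 samples, the mean of TC308448 differed from the siblings by -0.03 in ms23 mutants and by -0.05 in ms32 mutants.

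**Figure D2:**
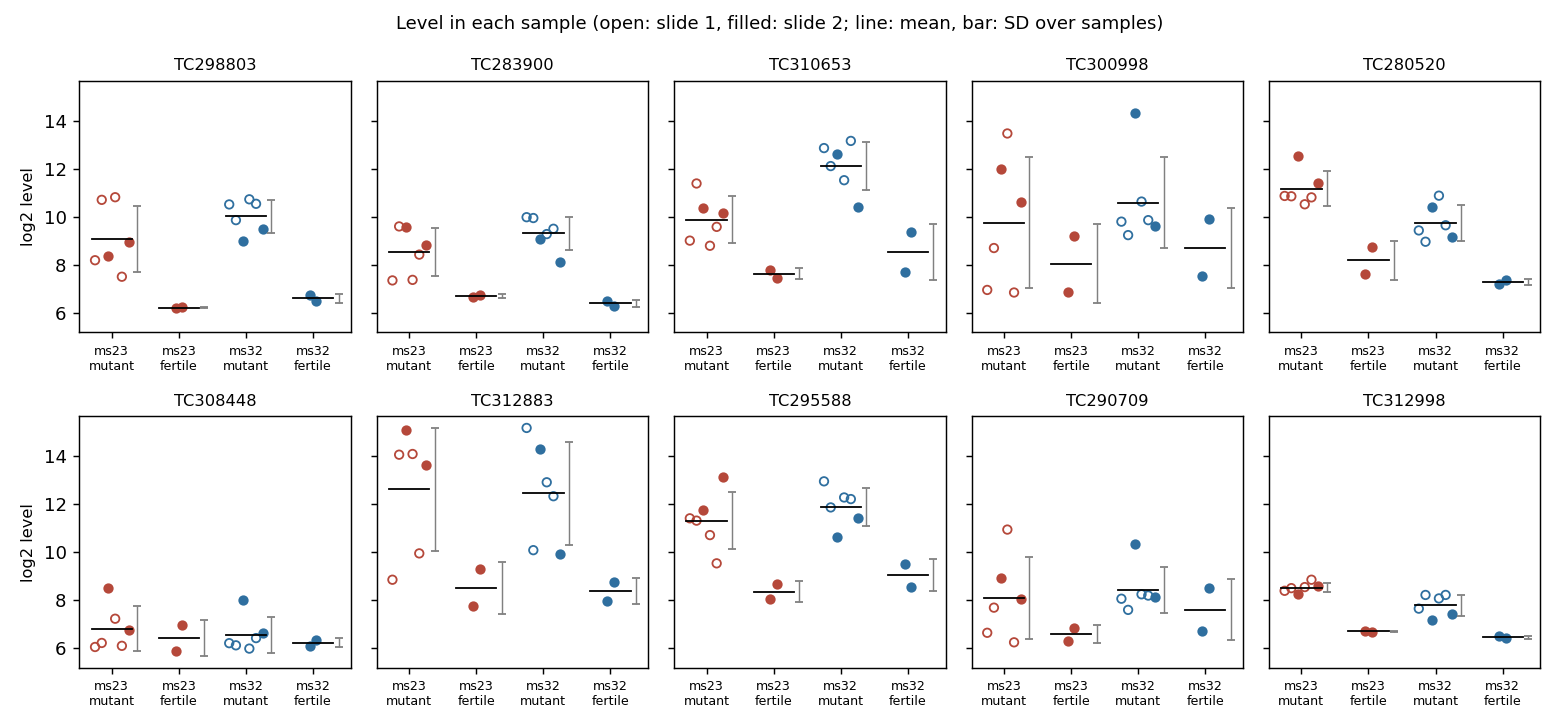
Log2 level of the 10 probes in each of the 16 samples, by group; open circles are slide 1 and filled circles slide 2, lines are group means and bars the SD over samples. In 6 of the 10 panels every mutant sample lies above the siblings of its family, beside 0.35% of all probes. The slide 2 values chose these probes, so nothing is read from that count. TC300998, TC308448, TC312883 and TC290709 overlap in at least 1 family.

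The mutant samples of slide 1 gave a view of the set in samples that had not chosen it, although the siblings they were set against lay on slide 2 and had been used in the choice. Slide and group cannot be told apart in this comparison, so it was made as a description. All 4 slide 1 samples of the ms23 mutant lay above both ms23 siblings for 65 of the 137 probes (47.4%), beside 8.74% of all probes. All 4 slide 1 samples of the ms32 mutant lay above both ms32 siblings for 75 (54.7%), beside 7.3% of all probes. With the slide 2 samples included, all 12 mutant samples lay above the siblings of their family for 43 probes, beside 0.35% of all probes; the slide 2 values chose the set, so nothing is read from that count. Both slide 1 conditions held for 47 probes (34.3%), beside 1.38% of all probes, and neither held for 44. The median level difference was 0.69 for ms23 mutants of slide 1 against 1.19 for those of slide 2, and 0.83 for ms32 mutants of slide 1 against 1.05 for those of slide 2. Over all probes the slide 1 differences had medians of 0.01 and 0.00.

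For 120 probes the mean of the slide 1 samples was above the siblings in both families, and for 3 it was at or below them in both. Over all probes it was above the siblings for 51.2% in ms23 and 50.1% in ms32 mutants, and the share for both families was not computed. The siblings had been used in the choice, so counts of this kind are description only. In the ms23 family 9 probes had a slide 1 mean at or below the siblings, and in the ms32 family 11. CF632667 was such a probe in ms23 mutants: the slide 1 mean differed from the siblings by -0.31, while its processed ratios on slide 2 were 2.70 and 1.64. TC289348 had the same pattern, with a slide 1 difference of -0.66 in ms23 mutants and slide 2 ratios of 6.61 and 1.24. Its 2 ms23 siblings differed between themselves, at 6.34 and 10.76. In the ms32 mutants TC279344 had a slide 1 difference of -0.15, and slide 2 ratios of 0.82 and 4.59. TC279344 carried an outlier mark on slide 1, and marked spots were kept in the levels.

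**Figure D3:**
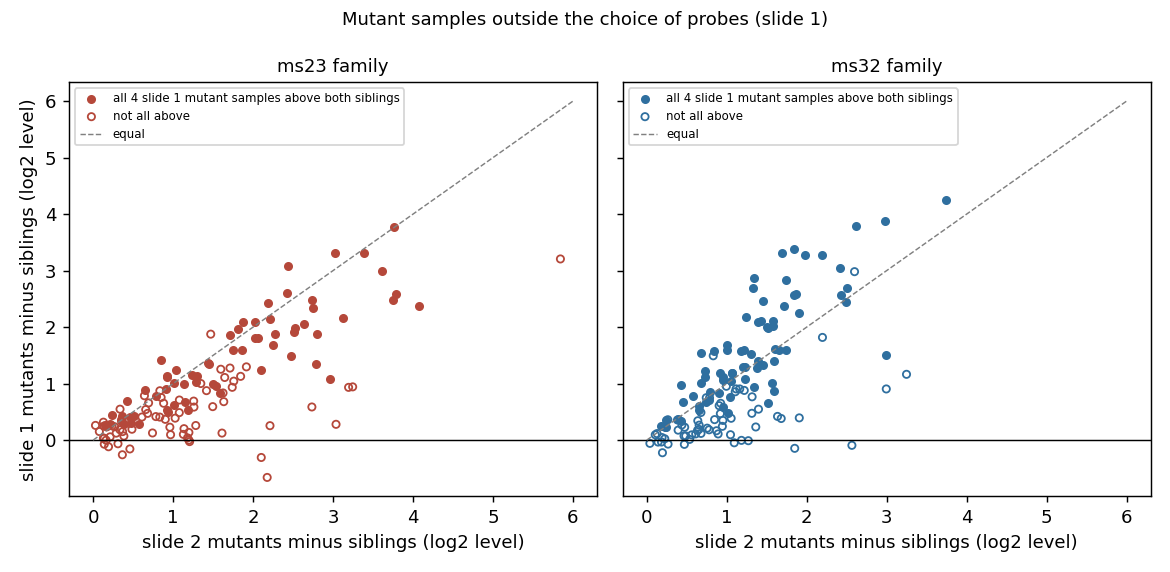
Log2 level of slide 1 mutant samples minus siblings (y axis) against slide 2 mutant samples minus siblings (x axis), 1 point per raised probe, with ms23 on the left and ms32 on the right; the dashed line marks equal differences. Filled points are the 65 ms23 and 75 ms32 cases in which all 4 slide 1 samples lay above both siblings, and most ms23 points fall under the line.

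In both families the Cy3 sample of mutant replicate 3 on slide 2 was the highest more often than the Cy5 sample. The rule required high mutant values on these arrays, so nothing is read from the counts. The Cy3 sample of ms32 mutant replicate 3 was the highest of the 6 ms32 mutant samples for 48 of the 137 probes, beside 22.2% of all probes, while the Cy5 sample of the same replicate was the highest for 12, beside 15.7%. On the array of the Cy3 sample the median ratio of the set was 1.69, beside 0.10 over all unmarked probes. On the other ms32 array it was 1.44, beside -0.03. In the ms23 family the Cy3 sample of replicate 3 was the highest for 36 probes, beside 14.9% of all probes, and the Cy5 sample for 13, beside 9.46%.

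Signal in the fertile siblings was low for part of the set but never absent throughout. Of the 137 probes, 109 were well above background in all 4 sibling samples and 28 were not, and 0 were below it in all 4. The shares over all probes were not computed, so these counts are not read as a trait of the set. Neither ms23 sibling sample was well above background for 9 probes. For these, sibling levels were taken as no lower than the lowest level of any probe well above background in that sample. On that scale the slide 2 mutants were 1.02-fold to 5.42-fold higher, and these sizes are uncertain. Both ms32 siblings were below background for 0 probes. In the mutant samples of slide 1, 120 probes (87.6%) were well above background in all 8 samples, beside 72.1% of all probes, and no probe was so in fewer than 4. The median level in these 8 samples was 8.41 for the raised probes and 7.15 for all probes. In the 4 sibling samples the medians were 7.47 and 7.19. The rule had required the background mark in both mutants on slide 2, so nothing is read from the slide 1 share and levels. No raised probe was saturated in any sample.

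The probes with the widest gap between the families were also described. TC279344 had ratios of 5.92 and 5.98 in ms23 mutants and of 0.82 and 4.59 in ms32 mutants. It was well above background in 2 of 4 slide 1 samples of the ms23 mutant and 3 of 4 of the ms32 mutant. TC304010 had ratios of 7.17 and 5.92 in ms23 mutants and 1.45 and 4.02 in ms32 mutants, and its levels in all mutant samples lay above those of the siblings. TC303373 had ratios of 4.70 and 3.34 in ms23 mutants and 1.72 and 0.96 in ms32 mutants. Its ms32 mutant levels, 5.73 to 6.48, overlapped the 6.15 and 6.11 of ms32 siblings.

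On the ms32 side, TC303617 had ratios of 1.79 and 4.13 in ms23 mutants and 6.30 and 3.37 in ms32 mutants. Neither ms23 sibling was well above background for it, so the ms23 size is uncertain. It was 1.51-fold on the level scale, with sibling levels taken as no lower than the lowest of any probe well above background. TC287602 had ratios of 0.87 and 1.34 in ms23 mutants and 1.32 and 4.93 in ms32 mutants. TC289348 had 6.61 and 1.24 in ms23 mutants and 3.84 and 8.03 in ms32 mutants. In these last 2 probes the 2 arrays of a family differed by more than 3 log2 units at least once, which is larger than the gap between the families. The 2 ms32 arrays of TC279344, and those of TC303617, also lay further apart than the means of the families.

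In limma on all 8 arrays, 31 of the 137 probes were called higher in ms23 mutants than in siblings, beside 0.385% of all probes, and 6 in ms32 mutants, beside 0.035% (adjusted p under 0.05). The rule used the same slide 2 ratios, so nothing is read from these shares. The 6 were called in both families, and they included TC310653, TC312998 and 1 of the 2 raised probes of TC287746. This model counts dye-swapped arrays as separate units. With them averaged, 24 raised probes were called higher in ms23 mutants, of 65 over all probes, and 1 in ms32 mutants, of 2. The median fitted log2 ratio of the set was 1.19 in ms23 and 1.05 in ms32 mutants, beside 0.00 in each over all probes tested. These are smaller than the processed-signal ratios. With background correction and loess normalization 136 of the 137 probes were positive on all 4 arrays, and 55 stayed at 0.8 or more on all 4.

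The direct comparison on slide 1 asked whether the transcripts raised in both mutants stood at the same level in the 2 mutants. It rested on 2 replicates, each the mean of a dye-swapped pair of arrays, and the ratio is ms23 over ms32 mutant. The set had no common direction, with 67 positive and 67 negative ratios and a median of -0.01, beside 0.01 over all probes. Of 134 probes tested, 28 (20.9%) were called, beside 11.6% of all 38609 probes (limma, adjusted p under 0.05). With 1 residual degree of freedom, the share of false calls on simulated arrays was above this threshold, so adjusted p-values of this comparison may be too small. Of the 28, 10 were higher in ms23 mutants, beside 5.58% of all probes, and 18 lower, beside 5.98%. Lower calls made up 51.7% of all calls, and 71.6% with arrays centred on their median in place of loess. The median size of the log2 ratio was 0.43 for the set and 0.19 for all probes, and 33 probes (24.6%) differed at least 2-fold, beside 8.34% of all probes. The raised probes were brighter than the average probe, at a median percentile of 65.9 in the slide 1 samples. The part of brightness in these shares was not tested.

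**Figure D4:**
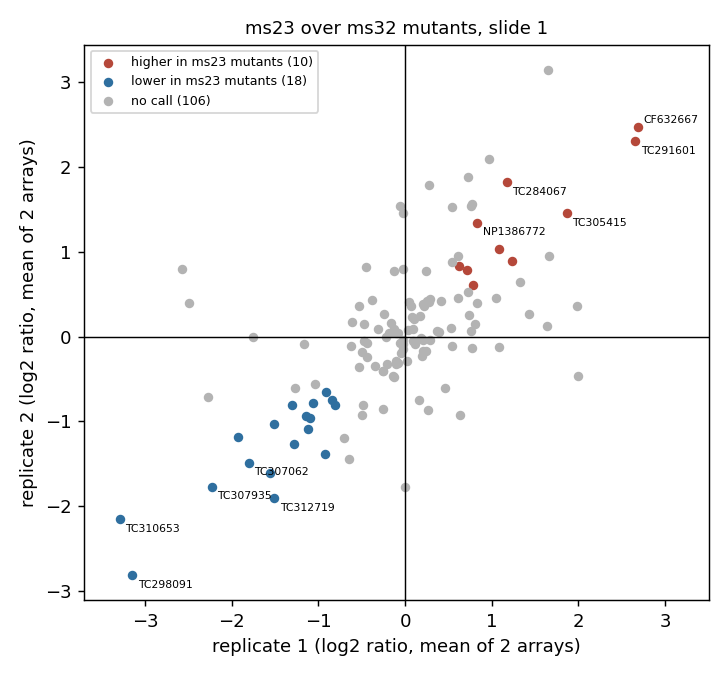
Log2 ratio of ms23 over ms32 mutants on slide 1 for the 134 tested raised probes, replicate 1 on the x axis and replicate 2 on the y axis, each the mean of 2 dye-swapped arrays. The 10 probes called higher lie at the upper right and the 18 called lower at the lower left, and 106 were not called.

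Of the probes called lower in the ms23 mutant, TC298091 had the lowest ratio. Its ratios were -3.47, -2.82, -3.68 and -1.95 on the 4 arrays, with a fitted value of -2.98 (SE 0.126, limma adjusted p = 0.00927, n = 2 replicates). Levels were 8.24, 8.77 and 9.24 in ms23 mutants (lowest, median and highest of 6) and 9.04, 11.52 and 12.12 in ms32 mutants. The lowest ms32 mutant sample, which came from slide 2, overlapped the ms23 samples. Both mutants nonetheless lay above their siblings, at 7.79 and 7.66 for ms23 and 8.17 and 8.48 for ms32.

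TC310653, which had similar ratios to the siblings in both families, was also lower in ms23 mutants. Its 4 ratios were -4.06, -2.51, -2.53 and -1.77, with a fitted value of -2.72 (SE 0.327, limma adjusted p = 0.035). With scaling between arrays its call was lost, at -2.47 (limma adjusted p = 0.0613). TC307935 followed at -1.997 (SE 0.153, limma adjusted p = 0.0185), with ratios between -2.45 and -1.41 on the 4 arrays. It is among the probes nearest the threshold, and its levels overlapped the siblings in both families. TC312719 had -1.70 (SE 0.139, limma adjusted p = 0.0202) and TC307062 had -1.64 (SE 0.122, limma adjusted p = 0.0176), each with 4 negative ratios. With the 4 arrays as separate units the call of TC312719 was lost (limma adjusted p = 0.0562). TC312719 was one of the brighter probes, at a median level of 12.70 in ms23 and 14.37 in ms32 mutants, against 10.25 and 10.25 in ms23 siblings and 11.99 and 11.47 in ms32 siblings.

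TC295588 had less signal in the ms23 mutant on slide 1, at -1.58 (SE 0.088, limma adjusted p = 0.0125), although its ratios to siblings were larger in ms23 mutants. On slide 2, where the mutants lay on separate arrays, the direction was reversed. Its mean level there was 12.4 in ms23 and 11.0 in ms32 mutants. TC298803 was called lower too, at -1.11 (SE 0.086, limma adjusted p = 0.0189), but its 4 arrays read 0.30, -2.54, -2.36 and 0.17. The small SE reflects that the means of the 2 dye-swapped pairs nearly coincided; with the 4 arrays as separate units the call was lost (limma adjusted p = 0.353).

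Of the named probes called higher in the ms23 mutant, TC291601 had the most even ratios, 2.83, 2.48, 2.37 and 2.23, with a fitted value of 2.48 (SE 0.13, limma adjusted p = 0.0119). Its levels were 9.91, 10.88 and 11.45 in ms23 mutants and 7.54, 7.77 and 9.22 in ms32 mutants, with no overlap. The siblings stood at 8.14 and 9.61 for ms23 and at 6.66 and 7.74 for ms32, so that 1 ms32 sibling lay within the range of the ms32 mutants. TC284067 had ratios of 1.32, 1.03, 1.09 and 2.56 and a fitted value of 1.50 (SE 0.199, limma adjusted p = 0.04), and its call was lost with the replicate number as a fixed block on 4 arrays (limma adjusted p = 0.0677). Its levels were 12.02, 12.79 and 13.53 in ms23 mutants, against 9.10 and 8.94 in ms23 siblings. They were 10.10, 11.06 and 12.01 in ms32 mutants, against 9.05 and 8.77 in ms32 siblings, so that its levels did not overlap with the siblings in either family.

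NP1386772 was called higher at 1.09 (SE 0.165, limma adjusted p = 0.0484), with 4 positive ratios between 0.56 and 1.80, and not without the filter on dim probes (limma adjusted p = 0.056). Its levels overlapped the siblings in both families. CF632667 and TC305415 were called on uneven arrays. CF632667 had ratios of 4.47, 0.90, 1.36 and 3.58 (fitted 2.58, SE 0.105, limma adjusted p = 0.00905) and TC305415 had 3.83, -0.10, 0.74 and 2.17 (fitted 1.66, SE 0.142, limma adjusted p = 0.0215). Both calls were lost with the 4 arrays as separate units (limma adjusted p = 0.0986 and 0.195). Of the 28 called probes, 24 had the same sign on all 4 arrays, beside 40.1% of all probes tested. With the arrays as separate units 21 were also called, beside 15.4% of all probes. The 28 were called on these same arrays, so nothing is read from the 2 counts. In the authors' deposited table of processed values 0 of the 28 and 0 of all probes were called.

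A larger ratio to siblings in one family went little with a higher level in that mutant. Across the 134 probes, the difference of the mean ratios to siblings (ms23 minus ms32, slide 2) and the direct ratio of the mutants (slide 1) had a Pearson correlation of 0.12, beside 0.17 over 38173 probes. The probes of a slide share its samples and arrays, so the values describe these arrays. Of the 106 probes not called, 94 had a direct ratio within 1 log2 unit, and the range was from -1.49 to 2.40.

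Several targets carried more than 1 probe, which gave a second reading of the same named transcript on the same arrays. The set held 15 such targets, and these had 16 further probes outside the set. TC287746 and TC306936 each had 2 probes in the set. The 2 probes of TC287746 had mean ratios over 4 arrays of 2.47 and 2.05. The 2 raised probes of TC306936 had mean ratios of 1.51 and 1.49, while its 3 other probes had 1.33, 0.22 and -0.16.

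Of the 16 further probes, 8 had a mean ratio of at least 0.8, beside 3.56% of all unmarked probes. A positive mean was seen for 13 and a positive ratio on all 4 arrays for 8, and the shares over all probes were not computed. By construction none met the rule. Close readings came from TC298200 (raised probe 1.15, other probe 1.18), TC305991 (1.05 and 1.08), TC288540 (2.16 and 2.14) and TC298091 (1.75 and 1.46). For TC310653 the other probe had a mean of 2.48, beside 3.37 for the raised one. Other pairs lay further apart. The raised probe of TC312883 had a mean ratio of 5.16 and the other probe 0.09, those of TC304010 had 4.64 and -0.18, those of CF632667 had 2.54 and -0.09, those of TC307646 had 1.99 and 0.53, those of TC305098 had 1.32 and 0.03, and those of TC313976 had 1.51 and 0.25. The other probes of TC312883, TC304010 and CF632667 were well above background in only 2, 1 and 2 of the 4 slide 2 mutant samples, whereas those of TC307646, TC305098 and TC313976 were so in all 4.

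The direct ratio of the mutants was read by both probes for some of the same targets. TC305991 was lower in ms23 mutants by both, at -0.81 (limma adjusted p = 0.0294) and -0.87 (limma adjusted p = 0.0265). TC310653 was lower by both, at -2.72 and -1.07 (limma adjusted p = 0.035 and 0.02). For TC298091 the raised probe read -2.98 and the other 0.02 (limma adjusted p = 0.97), although both had been higher in the mutants than in siblings. For TC305098 the raised probe read 0.31 and the other -2.81 (limma adjusted p = 0.268 and 0.0132). CF632667 was called by the raised probe at 2.58 and not by the other, at 0.08 (limma adjusted p = 0.648). TC307646 and TC313976 were called by the raised probe at -0.93 and -1.05 and not by the other probe, at -0.24 and 0.19 (limma adjusted p = 0.271 and 0.329), and TC307646 lost its call with scaling between arrays (limma adjusted p = 0.055). The probe sequences were not used here, so it was not tested whether such pairs bind the same transcript.

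**Figure D5:**
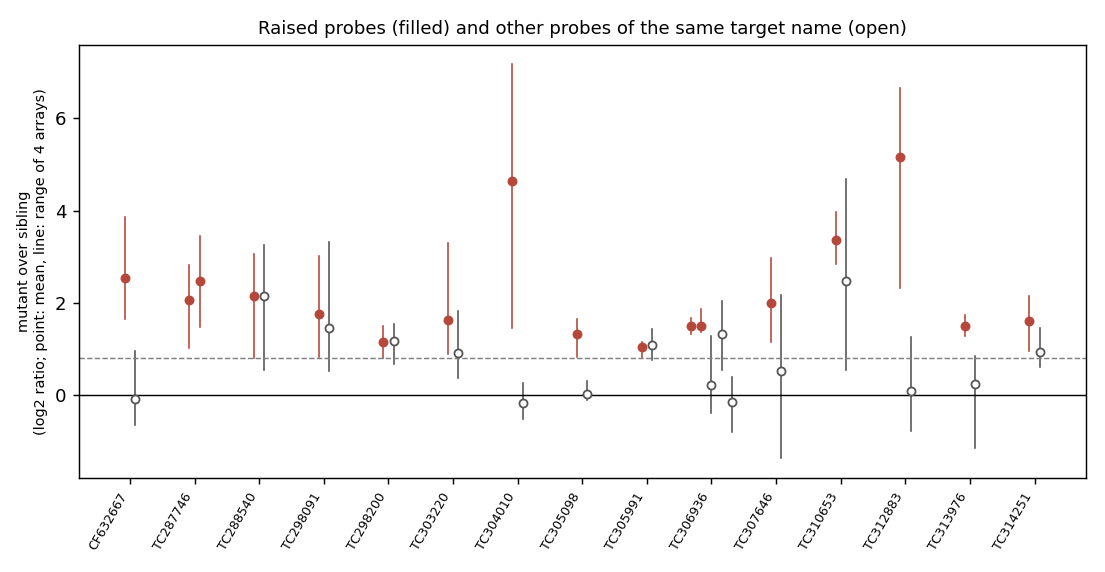
Log2 ratio of mutant over sibling on slide 2 for the 15 targets with more than 1 probe; filled points are raised probes, open points other probes of the same target name, each the mean of 4 arrays with a line for their range. The probes lie close together for TC298200, TC305991 and TC288540 and far apart for TC312883, TC304010 and CF632667.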

How the data were processed

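Whole-anther RNA of 16 labelled samples was measured on 8 two-colour arrays (design 016047). Per the labels' protocols RNA was amplified and labelled with Cy3 or Cy5. Per the file headers, Feature Extraction 10.5.1.1 gave the deposited intensity values per spot and dye (median, background and processed) and marks of 0 or 1. The authors' deposited table of processed intensity values names Feature Extraction and limma in the submitters' processing notes; how it was normalized is not stated there.

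The set was chosen on the processed signals of slide 2. For tests, R 4.3.3 and limma 3.58.1 were used: normexp on median signals with an offset of 50, loess within arrays, control and marked spots at weight 0. Sample levels were taken after Aquantile normalization between arrays, and spots with an outlier mark on slide 1 were kept in them. The direct comparison used slide 1 alone, dye-swapped arrays averaged, and probes without outlier marks that passed the background mark in 50% or more of either mutant's slide 1 samples. It tested 38609 probes with 1 residual and 2.26 prior degrees of freedom, and calls have a Benjamini-Hochberg adjusted p under 0.05. Of the raised probes, 3 were not tested. The plan's random block could not be estimated from 4 arrays. Ratios to siblings came from 1 model of all 8 arrays with a dye term, over 39974 (ms23) and 39976 (ms32) probes.

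The members, lists and tests were chosen with earlier results of these data known. Named probes were the 10 with the highest lowest ratio, up to 5 called in each direction between the mutants, the 3 with the widest gap each way between families, those nearest the threshold, and up to 10 with further probes of the target; TC305991, TC305098, TC306936, TC313976 and the neighbouring-number pairs were chosen after their values were seen. The number of arrays limits the precision.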

Additional observations from a re-analysis of the deposited data

Results flagged for a closer look

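The levels of the 31 named probes were screened for a single distant sample in the 6 samples of each mutant, 62 groups in all. For 6 independent samples chance would mark about 1 in 20 groups. Here each replicate was in both dyes and the slide 2 values chose the set, so that rate need not hold. In all, 5 groups were marked, each in ms32 mutants. In 4 of them the distant sample was the Cy3 sample of replicate 3 on slide 2 array 2, which was among the arrays that chose the set. TC279344 had a level of 10.51 there, against 5.94 to 6.63 in the other 5 samples. TC300998 had 14.32, against 9.24 to 10.63, TC290709 had 10.33, against 7.60 to 8.25, and TC308448 had 8.03, against 5.99 to 6.63. For TC298091 the distant sample was the Cy5 sample of replicate 3 on slide 2 array 1, at 9.04, against 11.05 to 12.12 in the others.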

How the results depend on the processing

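The size of the set depended on how it was drawn: 262 probes met a threshold of 0.6 and 86 one of 1, 56 met the rule on loess ratios and 69 on the deposited table, 439, 394 and 256 without slide 2 array 1, 2 or 4, and 201 without array 3. Calls between the mutants, 4462 over all probes with 10 raised probes higher and 18 lower, became 8781, 28 and 31 with an offset of 10, 10217, 22 and 39 with median centring, and 6884, 17 and 29 with processed signals. In 1 model of 8 arrays 8227 were called. With the filter requiring every sample of a mutant, 18 raised probes were higher. On the deposited table limma called 0 probes, with 7498 of all probes and 40 raised probes at an unadjusted p under 0.05. Median centring made 71.6% of all calls falls in ms23 mutants, in place of 51.7%. Of 130 repeated tests on 13 named called probes, 103 kept direction and threshold, 27 lost the threshold and 0 turned. Without either replicate, where no test is possible, 0 of the 13 ratios changed sign. A call on 2 replicates largely requires both to lie on the same side, so nothing is read from that last count. Calls against siblings, 525 in ms23 and 196 in ms32 mutants, became 928 in ms23 with scaling between arrays, 298 in ms32 with an offset of 10, and 253 and 101 with dye-swapped arrays averaged.

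Both mutants of a replicate number share their arrays, so the ratios are paired by hybridisation. With a fixed replicate block on 4 arrays, chosen after seeing the data, 4023 probes were called, 10 and 20 of them raised probes, and 19 of the 28 were called again; without the block 5941, 11 and 19. The random replicate block in the 8-array model, at a correlation of -0.105, gave 533 and 195 calls against siblings. Dim signals limit the sizes: 28 of 137 probes were not well above background in every sibling sample.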

Other observations

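Some raised probes carried consecutive tentative consensus numbers. Of 107 TC names in the set, 153 neighbouring numbers were on the array, and 6 of these names (3.92%) were themselves in the set, beside 0.423% of the 25293 TC names. They formed 3 pairs, chosen after their values were seen. TC281367 and TC281368 had mean log2 ratios of mutant over sibling of 2.41 and 2.94 over the 4 slide 2 arrays, TC307062 and TC307063 had 1.82 and 1.73, and TC305097 and TC305098 had 2.11 and 1.32. TC307062 and TC307063 were also both called lower in the ms23 mutant on slide 1, at -1.64 and -1.03 (limma adjusted p = 0.0176 and 0.0237). Of the 157 probes with a neighbouring number outside the set, 13 (8.28%) had a mean ratio of at least 0.8, beside 3.56% of all unmarked probes. Whether neighbouring numbers stand for related sequences was not tested.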
